A study of Mus musculus with 10 samples.

Results

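The 7 genes described here encode glycoproteins of the acellular gels of the inner ear and their attachment, namely *Tecta*, *Tectb*, *Ceacam16*, *Otog* and *Otoa* of the tectorial membrane and its anchoring, and *Coch* and *Otos* of the surrounding cochlear matrix. They are taken by symbol, by a rule that uses no measured value, but the list was drawn up with earlier results of these data known. All 7 were found among the 34590 genes counted in each of 10 bulk RNA-seq libraries of handpicked mouse cochlear cells. There were 2 libraries for each of 5 cell types. Supporting cells (SCs; Deiters' and pillar cells) came from Fgfr3iCreER+ mice with the reporter Rosa26-CAG-loxP-stop-loxP-tdTomato+ at P26 (replicate 11) and P27 (replicate 12), in which a tamoxifen-inducible Cre under Fgfr3 control switches on the red reporter. Converted hair cells (cHCs), which are SCs turned towards a hair cell fate by forced Atoh1, came at P33 from mice with the same 2 alleles together with Atoh1-HA+ and the hair cell reporter alpha9 AChR-EGFP+ (replicates 13 and 16). Outer hair cells (OHCs) at P7 (replicates 14 and 15) and mature OHCs at P21 and P22 (1 library each, marked OHC_P22 in the plots) are labelled prestin-YFP knock-in, although the study's own scheme gives a Prestin-CreERT2 line with tdTomato for the P7 cells. Inner hair cells (IHCs) came from Pval-Cre+; tdTomato+ mice, in which the parvalbumin gene drives Cre, at P74 and P75, 1 library each. SCs and cHCs thus share the Fgfr3iCreER and tdTomato alleles, and every library pools the cells picked for 1 reporter colour or pair of colours. The study's scheme gives tamoxifen for the mice of SCs, cHCs and P7 OHCs, and none for those of mature OHCs and IHCs. The labels put an unexplained letter m before the age of the P21 OHC library and both IHC libraries, and f before P22. Each age belongs to 1 cell type only. Age, mouse line and cell type thus cannot be told apart, nor can tamoxifen where it differs. OHCs alone were taken both young and mature, and there age and a possible difference in mouse line and tamoxifen cannot be told apart.

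The tectorial membrane is a gel of collagen fibrils in a striated sheet of non-collagenous glycoproteins that overlies the hair cells, and sound shears it against the hair bundles. Alpha-tectorin (*Tecta*) and beta-tectorin (*Tectb*) are zona pellucida domain proteins that build the striated sheet with CEACAM16, otogelin (*Otog*) and its relative otogelin-like (*Otogl*) are mucin-like proteins of inner ear membranes, and otoancorin (*Otoa*) attaches the membrane to the spiral limbus. Cochlin (*Coch*) is an abundant secreted protein of spiral ligament and limbus fibrocytes, and otospiralin (*Otos*) is another fibrocyte protein. Mutations in most of these genes cause hearing loss in humans or mice. The tectorin genes are switched on while the membrane is laid down around birth, and the cells that secrete the sheet are mainly non-sensory cells of the cochlear floor.

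In the mm9 build (GENCODE vM1) *Tecta* lies on the minus strand of chromosome 9 from 42137702 to 42208012, and *Tectb* on the plus strand of chromosome 19 from 55255223 to 55270803. *Otoa* (128226836 to 128306611), *Otog* (53496357 to 53566804) and *Ceacam16* (20437446 to 20446648, minus strand) are all on chromosome 7, *Coch* is on chromosome 12 from 52694361 to 52706760, and *Otos* is on chromosome 1 from 94540795 to 94545418. *Ceacam16* overlaps 1 annotated gene on the opposite strand, and since the strand setting of the counting is not given in the sources used here, reads of that gene could be counted with it. The annotated exons run from 1635 bases in *Ceacam16* to 10045 bases in *Otog*, so levels are compared between genes only per kilobase of exon. The promoters of *Tecta*, *Tectb* and *Otog* are shown because the first 2 genes were both highest in OHCs (P7) and the last was highest in SCs. Each is the 250 bases before an annotated start in RefSeq (GRCm38.p6, a later build than that of the counts), 5′ to 3′ on the gene's own strand, and capitals mark the E-box CATCTG, searched on both strands, a motif of the kind bound by Atoh1 and many other bHLH factors.
Tecta, first start (chr9:42401691-42401940, minus strand): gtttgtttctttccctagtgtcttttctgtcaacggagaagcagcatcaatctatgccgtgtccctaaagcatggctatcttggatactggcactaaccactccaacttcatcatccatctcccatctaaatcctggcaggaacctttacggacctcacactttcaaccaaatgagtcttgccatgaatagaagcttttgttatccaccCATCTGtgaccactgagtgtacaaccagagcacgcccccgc
Tecta, second start (chr9:42399948-42400197, minus strand): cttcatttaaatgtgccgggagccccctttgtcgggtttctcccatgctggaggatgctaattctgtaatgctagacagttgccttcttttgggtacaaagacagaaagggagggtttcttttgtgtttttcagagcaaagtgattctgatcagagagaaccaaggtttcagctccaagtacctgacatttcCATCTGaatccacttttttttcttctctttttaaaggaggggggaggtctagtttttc
Tectb (chr19:55180476-55180725, plus strand): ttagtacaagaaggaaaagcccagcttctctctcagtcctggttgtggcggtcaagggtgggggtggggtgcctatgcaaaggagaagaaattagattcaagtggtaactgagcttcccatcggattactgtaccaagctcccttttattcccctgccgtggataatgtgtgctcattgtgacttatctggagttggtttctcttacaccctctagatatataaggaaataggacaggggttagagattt
Otog (chr7:46240737-46240986, plus strand): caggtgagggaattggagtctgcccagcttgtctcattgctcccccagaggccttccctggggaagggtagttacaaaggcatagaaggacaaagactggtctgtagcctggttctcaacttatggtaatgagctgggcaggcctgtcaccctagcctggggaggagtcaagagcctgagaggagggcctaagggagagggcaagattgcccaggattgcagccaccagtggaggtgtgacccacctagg
Both *Tecta* promoters held CATCTG, beginning 41 and 58 bases before the start, and 14.4% of the 32851 promoters in the table hold it on either strand within the same length. The *Otos* promoter held the other E-box searched, CAGCTG, its own reverse complement, which 13% of promoters hold, beginning 153 bases before the start. Neither E-box was present in these windows of *Tectb*, *Otog*, *Otoa* or *Coch*. The motif ACAAAG, searched on both strands and held by 16.5% of promoters, occurred at 2 places in *Otog* and at 2 in the second *Tecta* promoter. TATAAA, searched in the same way and held by 12.4%, occurred in none of the 6 members with a promoter in the table. *Ceacam16* was not in it.

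The study's methods call the libraries of a cell type biological duplicates. Between 15016129 and 40518766 reads were counted on genes per library, and levels are given as counts per 1000000 counts on genes (CPM), scaled by edgeR's TMM factors, in which 3 counts correspond to 0.0762 to 0.264 CPM. The mature OHC library at P21 stands apart, with a TMM factor of 0.583 against 0.930 to 1.20 in the others. The share of reads not assigned to a gene, for any reason, was 72.1% in it. That share was 66.8% in the mature OHC library at P22 and 44.2% to 60.0% in the other cell types. The defining markers largely followed the labels, with exceptions. The IHC gene *Fgf8* was at 0 in both IHC libraries. The hair cell gene *Calb1* was at 0.202 and 0 CPM in IHCs and at 0.529 CPM in the mature OHC library at P21. These lay under the 1.33 and 1.59 CPM of SCs, while the mature OHC library at P22 was at 23.9 CPM. The OHC gene *Ikzf2* was at 463 to 502 CPM in OHCs and also at 296 CPM in SC replicate 11. *Fgfr3*, *Prox1* and *Lfng*, listed for Deiters' and pillar cells, were higher in cHCs than in SCs in 4 of 4 pairs of libraries. The 8 hair cell genes summed to 363 to 364 CPM in SCs and to between 4593 and 9024 CPM in all hair cell types, the OHC genes *Slc26a5* (prestin) and *Ocm* were at 1061 CPM or more in each of the 4 OHC libraries, and the IHC gene *Slc17a8* was at 1763 and 1907 CPM in IHCs and at 75.5 CPM or less elsewhere. The 10 Deiters' and pillar cell genes summed to 8450 to 12807 CPM in SCs, 1329 to 3176 CPM in cHCs, 1829 to 2142 CPM in IHCs, 899 to 1119 CPM in OHCs (P7) and 329 to 369 CPM in mature OHCs. The IHC libraries therefore carried more of these genes than either set of OHCs, with *Gjb2* at 611 and 468 CPM and *Sox9* at 96.0 and 64.5 CPM, and their part in the IHC results was not tested. *S100a1* alone gave 7255 and 10808 CPM of this list's sum in SCs, and 809 and 791 CPM in OHCs (P7). The 4 red blood cell genes summed to 28.0 to 43.9 CPM in IHCs and to 1.43 CPM or less elsewhere, the lists for Reissner's membrane, endothelium and macrophages to 20.2 CPM or less in every library, glia to 127 CPM or less, and spiral ganglion neurons to 0.770 to 2.04 CPM in SCs and 191 to 761 CPM in the hair cell types.

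All 7 genes were detected above 3 counts in at least 1 cell type, but in no cell type were all 7 above 3 counts in both libraries, although they were in cHC replicate 16 and in the IHC library at P74. Per kilobase of exon the 7 genes together reached 310 and 2123 CPM in SCs, 122 and 13.1 in cHCs, 195 and 498 in OHCs (P7), 124 and 59.6 in IHCs, and only 3.84 and 6.88 in mature OHCs. *Ceacam16* was the largest contributor in both SC libraries, at 44.3% and 90.9% of the sum, whereas *Tectb* made up 84.0% and 84.6% in OHCs (P7). In IHCs *Ceacam16* and *Otog* shared the first 2 places. A joint F-test over the 5 cell types, with Benjamini-Hochberg adjustment over all 16891 genes tested, called 3 of the 7 members, *Tectb* (FDR 0.00230), *Tecta* (FDR 0.00426) and *Ceacam16* (FDR 0.0270), where 7.81% of all genes tested were called. *Otog* was next at an FDR of 0.0609, *Otoa* followed at 0.118 and *Otos* at 0.170, and *Coch* was at 0.493. Without SC replicate 11 or with limma-voom *Ceacam16* lost this call (FDR 0.0811 and 0.424), and *Otog* gained it without any 1 of both SC, both cHC, both OHC (P7) and both IHC libraries (FDR 0.000273 to 0.050).

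**Figure D1:**
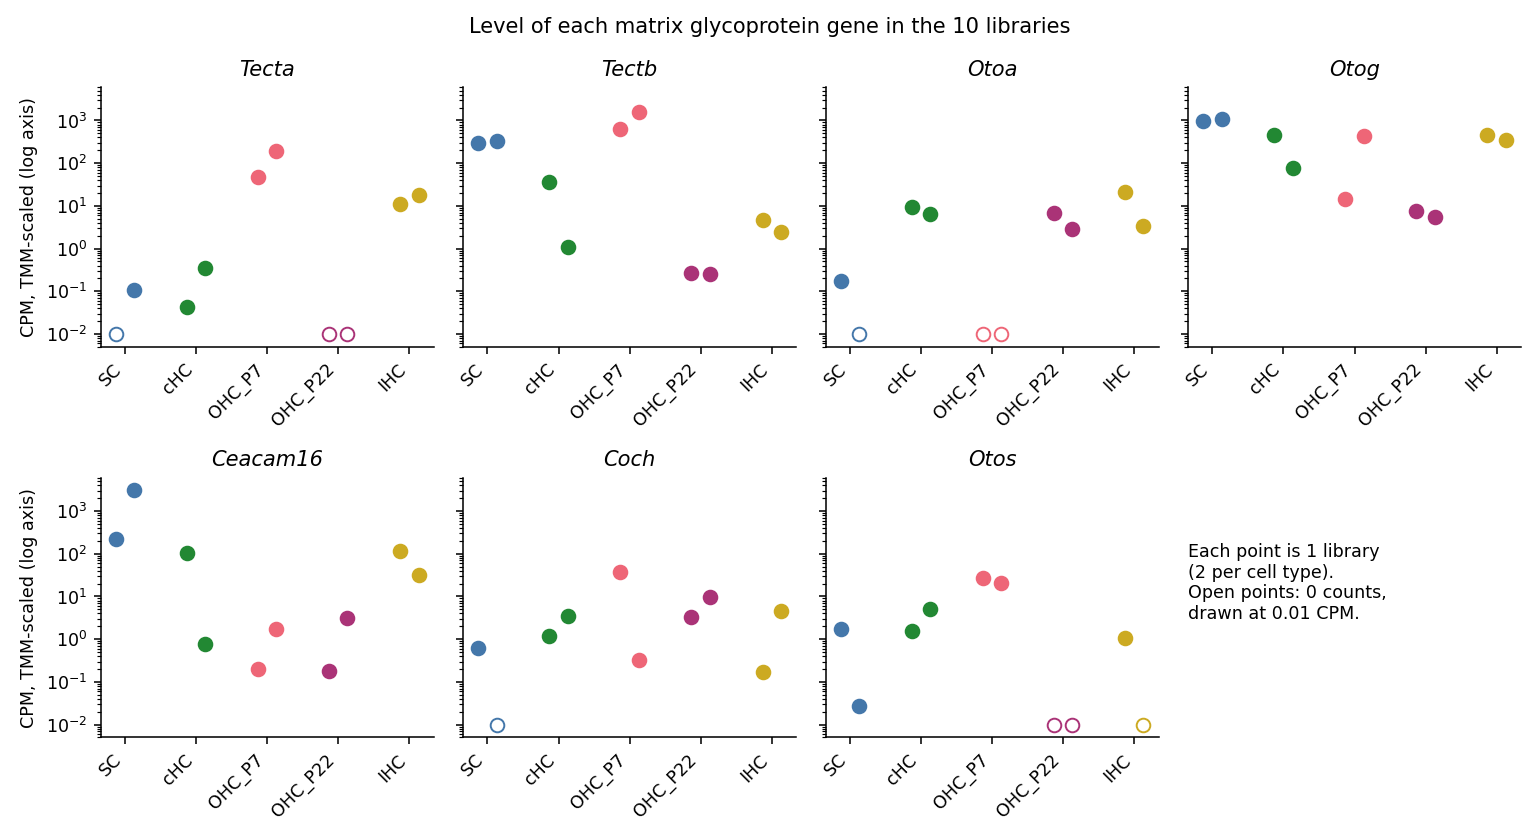
CPM of each of the 7 genes (log axis, TMM-scaled) in the 10 libraries, 2 points per cell type, with open points at 0.01 for libraries with 0 counts. *Tecta* and *Tectb* were highest in OHCs (P7), *Otog* and *Ceacam16* in SCs, and every gene was under 10 CPM in both mature OHC libraries.

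**Figure D2:**
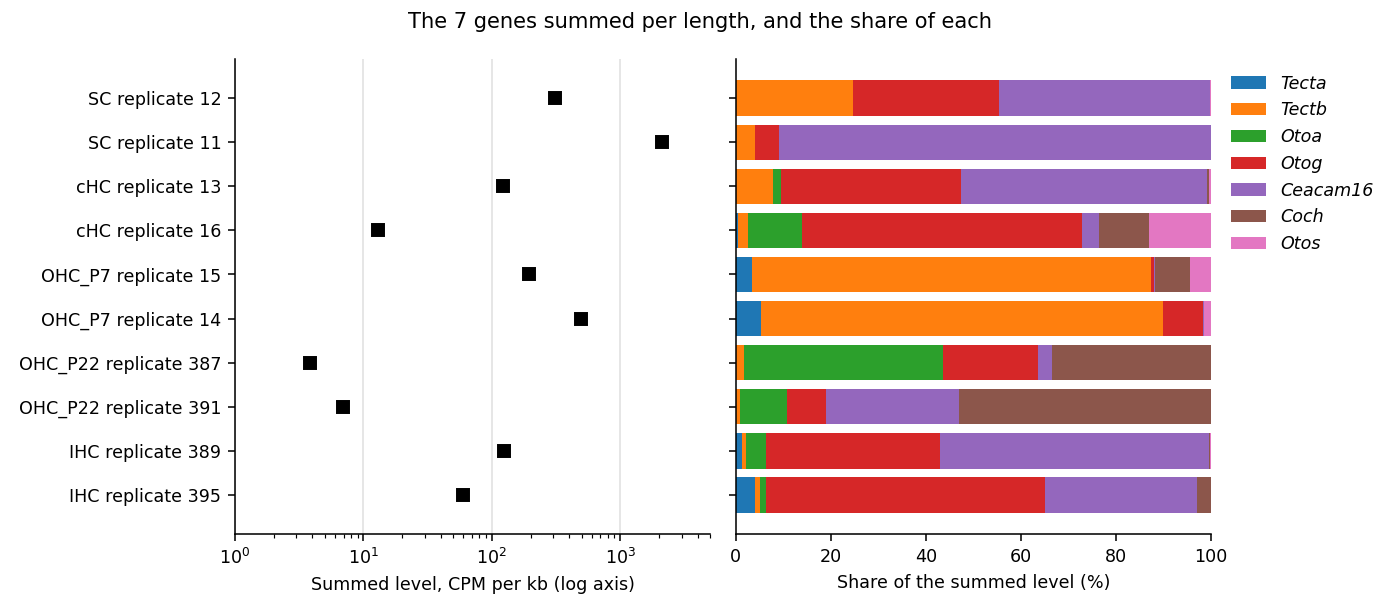
Left, the summed level of the 7 genes in each library as CPM per kilobase of exon (log axis); right, the share of each gene in that sum. *Tectb* took over 80% of the sum in both OHC (P7) libraries, and the sum was lowest, at 3.84 and 6.88 CPM per kb, in mature OHCs.

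*Tecta*, whose product organises the striated sheet, was close to absent outside OHCs (P7) and IHCs. Its CPM were 47.9 and 193 in OHCs (P7), 11.3 and 17.8 in IHCs, 0.0425 and 0.356 in cHCs, 0.106 and 0 in SCs, and 0 in both mature OHC libraries. The groups did not overlap between OHCs (P7) and IHCs or between IHCs and cHCs, while cHCs and SCs overlapped and rested on 14, 1, 4 and 0 counts. A count of 0 in mature OHCs allows up to 0.264 and 0.126 CPM (3 counts, for counting error only). IHCs and OHCs (P7) did not differ past the threshold (FDR 0.399), nor did IHCs and cHCs (FDR 0.145). *Tectb*, its partner in the sheet, had a different order. The CPM of *Tectb* were 624 and 1611 in OHCs (P7), 331 and 292 in SCs, 36.2 and 1.07 in cHCs, 4.75 and 2.47 in IHCs, and 0.265 and 0.253 in mature OHCs, the last from 3 and 6 counts. Only cHCs and IHCs overlapped among neighbours in that order, and no 2 neighbours differed past the threshold (FDR 0.144 to 0.409). The 2 tectorin genes were thus both highest at P7 in OHCs and at or near 0 in mature OHCs, but SCs held *Tectb* without *Tecta* and IHCs held *Tecta* with little *Tectb*. In OHCs (P7) *Tectb* was at 293 CPM per kb on average and *Tecta* at 16.3. Both were higher in OHC (P7) replicate 14 than in replicate 15. So were supporting cell genes, with *Sox2* at 14.9 and 0.134 CPM, *Lfng* at 29.9 and 0.269 CPM and *Prox1* at 95.7 and 0.0671 CPM. *Hes1* and *S100a1* of the same list were lower in replicate 14. The part of supporting cells in the tectorin levels was not tested.

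*Ceacam16*, a secreted immunoglobulin-domain protein that interacts with alpha-tectorin, was highest in SCs and differed widely between duplicates. Its CPM were 3154 and 225 in SCs, 115 and 31.2 in IHCs, 104 and 0.787 in cHCs, 3.16 and 0.176 in mature OHCs and 1.77 and 0.201 in OHCs (P7). SCs lay above every other library, and OHCs of both ages were lowest by mean, with a ratio between duplicates of 14.0 in SCs and 132 in cHCs. The lower cHC library, at 0.787 CPM, lay under the higher OHC library of each age. IHCs, cHCs and OHCs overlapped with their neighbours in this order, and SCs and IHCs did not differ past the threshold (FDR 0.268). The 4 genes listed for the interdental cells and spiral limbus epithelium, which secrete the membrane's inner part, summed to 2696 to 2837 CPM in SCs, 10.4 to 972 CPM in cHCs, 118 to 319 CPM in OHCs (P7), 92.7 to 303 CPM in IHCs and 0.617 to 7.96 CPM in mature OHCs, and *Epyc* gave most of the sum in SCs. Their part in the levels of *Ceacam16* was not tested. *Otog* was the only member with at least 10 counts in every library. The CPM of *Otog* were 1079 and 961 in SCs, 455 and 350 in IHCs, 464 and 77.3 in cHCs, 426 and 14.8 in OHCs (P7), and 7.76 and 5.6 in mature OHCs. SCs were highest and mature OHCs lowest without overlap, whereas IHCs, cHCs and OHCs (P7) overlapped. No 2 neighbours in this order differed past the threshold (FDR 0.129 to 0.974).

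*Otoa*, the anchoring protein, followed none of the others and stayed low throughout. Its CPM were 21.7 and 3.37 in IHCs, 9.40 and 6.35 in cHCs, 6.88 and 2.91 in mature OHCs, 0.178 and 0 in SCs, and 0 in both OHC (P7) libraries. The first 3 cell types overlapped in sequence and lay above SCs and OHCs (P7) in every library, with 69 to 643 counts against 0 to 4. *Otoa* was thus present where *Tectb* was low and at or near 0 where *Tectb* was above 290 CPM. The fibrocyte genes were low as well. *Coch* reached 37.7 CPM in OHC (P7) replicate 15 and was at 0.327 CPM in replicate 14, and in the other 8 libraries it lay between 0 and 9.48 CPM. *Otos* was at 26.5 and 21 CPM in OHCs (P7), 5.21 and 1.57 in cHCs, 1.73 and 0.0266 in SCs, 1.08 and 0 in IHCs and 0 in both mature OHC libraries. OHCs (P7) lay above all others for *Otos* without overlap, and the neighbouring cHCs did not differ past the threshold (FDR 0.732). By edgeR with its filter on low counts, neither *Coch* nor *Otos* nor *Otoa* passed the threshold in any comparison of 2 cell types. Without the filter *Otos* was lower in mature OHCs than in OHCs (P7) (FDR 0.0327), limma-voom called *Otoa* in 4 comparisons, and DESeq2 called *Coch* in OHCs (P7) against SCs, *Otos* in mature OHCs against cHCs and OHCs (P7), and *Otoa* in several.

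The fibrocyte and mesenchyme list differed between the OHC (P7) libraries as *Coch* did, with a sum of 413 CPM in replicate 15 and 74.9 CPM in replicate 14 and 9 and 4 of its 10 genes above 3 counts. *Col1a2* was at 223 CPM and *Col3a1* at 119 CPM in replicate 15 and both were at 0 in replicate 14, but *Lum* was at 21.6 CPM in replicate 15 and 50.2 CPM in replicate 14. *Col1a2* and *Col3a1* split in SCs and cHCs as well. They had 29 and 10 counts in SC replicate 12 and 40 and 7 counts in cHC replicate 13. Both were at 0 in SC replicate 11 and cHC replicate 16. *Coch* had 14 and 0 counts in SC replicates 12 and 11, but 28 and 141 in cHC replicates 13 and 16. In the other cell types the fibrocyte and mesenchyme list summed to 705 to 831 CPM in SCs, where *Lum* alone was at 684 and 716 CPM, 17.8 to 196 CPM in cHCs, 39.2 to 131 CPM in IHCs and 11.0 to 20.8 CPM in mature OHCs. *Otos* did not follow this split between the P7 libraries, with 26.5 and 21 CPM. The part of such cells in the levels of *Coch* and *Otos* was not tested, and in pooled cells more cells of a type and more RNA per cell cannot be told apart. The 4 strial marginal cell genes summed to 45 to 481 CPM, nearly all from *Wnk2* (44.8 to 468 CPM), while *Kcnq1* reached 12.6 CPM and *Kcne1* and *Esrrb* were at or under 0.0882 CPM in every library.

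The comparison of cHCs with SCs sets converted cells beside their source cell type. The groups differ in forced Atoh1 and also in age and in the EGFP reporter, and these cannot be told apart. *Tectb*, *Otog* and *Ceacam16* were lower in both cHC libraries than in both SC libraries, and *Otoa* was higher, but none of the 7 members passed the threshold by edgeR's quasi-likelihood test, where 1.84% of all genes were called. Of the 7, 3 had an unadjusted p under 0.05, limma-voom called 2 (*Otoa* and *Otog*) and DESeq2 called 3 (*Tectb*, *Ceacam16* and *Otoa*). *Tectb* averaged 18.6 ± 24.8 CPM in cHCs against 311 ± 27.5 CPM in SCs (SD, n = 2), a log2 fold change of -4.06 ± 1.19 (SE) with an FDR of 0.144. *Ceacam16* gave -5.01 ± 2.0 (FDR 0.285) and *Otoa* 6.46 ± 2.51 (FDR 0.280). *Otog* averaged 271 ± 274 CPM against 1020 ± 83.6 CPM (FDR 0.448). *Tecta* stayed at 14 counts or fewer in all 4 libraries, and the FDRs of *Coch* (0.637) and *Otos* (0.759) were further from the threshold.

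The 2 cHC libraries differed widely in these genes. Replicate 13 held 33.9 times the *Tectb*, 6.01 times the *Otog* and 132 times the *Ceacam16* of replicate 16. Some other genes that were high in SCs, picked after their values were seen, split in the same way, with *Otogl* at 173 and 9.48 CPM, *Epyc* (a small leucine-rich proteoglycan) at 919 and 4.34 CPM, *Lum* at 178 and 6.60 CPM, *Gjb2* (a gap junction protein) at 83.4 and 1.73 CPM and *Sox9* at 126 and 16.0 CPM. Not all genes higher in SCs did so. *Jag1* was at 80.9 and 60.4 CPM and *Hes1* at 12.7 and 9.75 CPM, and *Col9a2* was higher in replicate 16, at 6.17 and 20.6 CPM. The hair cell genes *Pou4f3* (235 and 330 CPM) and *Myo6* (2775 and 2861 CPM) and the supporting cell genes *Fgfr3* (458 and 431 CPM) and *Prox1* (247 and 294 CPM) were alike in both. Apart from *Otogl* and *Col9a2*, the genes of this paragraph that are no members come from the marker lists. *Otogl*, *Col9a2* and *Epyc* are on the list of other matrix genes described later. Without replicate 13, the fall of *Tectb* (-8.19, FDR 0.000396) and of *Ceacam16* (-11.06, FDR 0.0215) passed the threshold, and leaving out any other library gave no member a call. Which cells of the pool gave this difference was not tested.

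**Figure D3:**
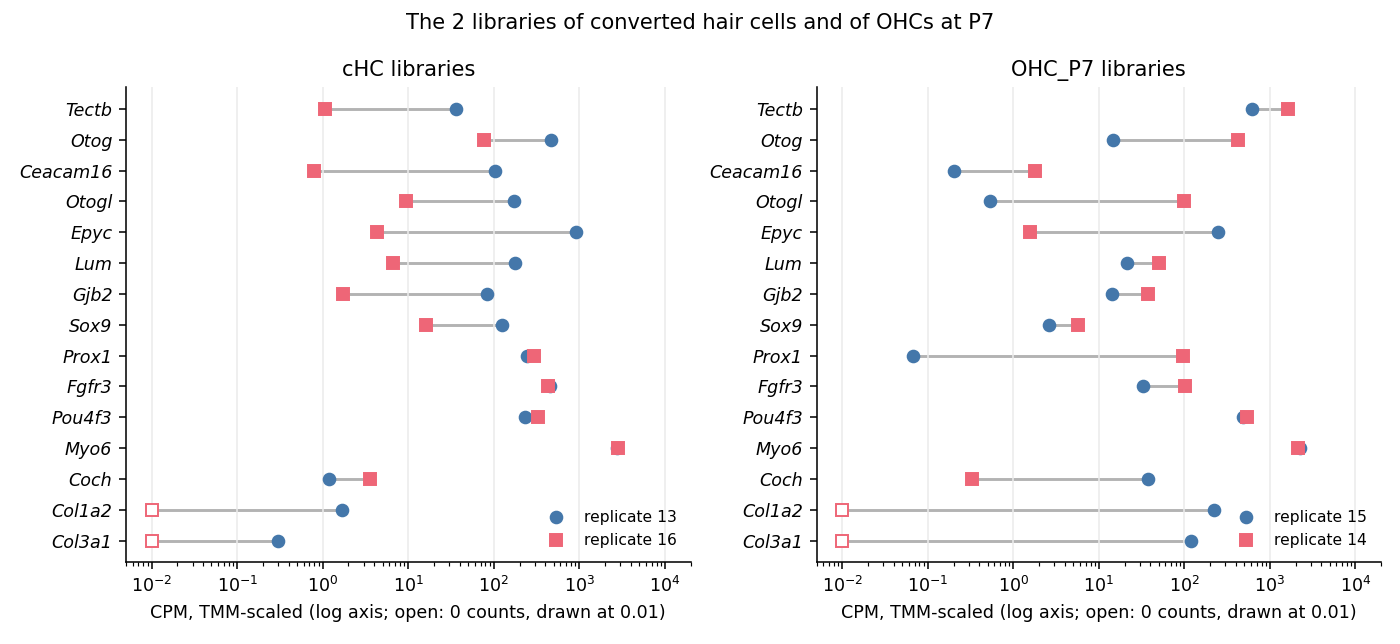
CPM (log axis) of 15 genes in the 2 cHC libraries (left) and the 2 OHC (P7) libraries (right), circles and squares joined by a line for each gene, open symbols at 0.01 for 0 counts. In cHCs *Tectb*, *Otog*, *Ceacam16*, *Epyc*, *Lum* and *Gjb2* were higher in replicate 13 while *Fgfr3*, *Pou4f3* and *Myo6* were alike; in OHCs (P7) *Coch*, *Col1a2* and *Col3a1* were higher in replicate 15 and *Otog*, *Otogl* and *Prox1* in replicate 14.

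OHCs (P7), which are hair cells still maturing, differed from SCs in *Tecta* and *Ceacam16*. These were 2 of the 7 members, 1 in each direction, where 3.41% of all genes were called. *Tecta* averaged 121 ± 103 CPM against 0.0531 ± 0.0751 CPM in SCs (log2 fold change 10.89 ± 1.95, FDR 0.0145). *Ceacam16* averaged 0.987 ± 1.11 CPM against 1689 ± 2071 CPM (-10.67 ± 2.56, FDR 0.0469). *Tectb* was higher in 4 of 4 pairs of libraries without passing the threshold (FDR 0.373), and *Otog* was lower in 4 of 4 pairs (FDR 0.316). The *Tecta* call was lost without OHC (P7) replicate 14 (FDR 0.0979). That of *Ceacam16* was lost without SC replicate 11 (FDR 0.0881), OHC (P7) replicate 15 (FDR 0.107) or replicate 14 (FDR 0.0518), with limma-voom (FDR 0.344) and with only the SC, cHC and OHC (P7) libraries (FDR 0.0902), and without replicate 14 *Otog* was called lower (-6.17, FDR 0.00783).

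Against cHCs, OHCs (P7) had more of both tectorin transcripts in 4 of 4 pairs of libraries, but none of the 7 members passed the threshold, where 0.343% of all genes were called. *Tecta* had a log2 fold change of 9.16 ± 1.81 with an FDR of 0.0779, and *Tectb* of 5.91 ± 1.30 with an FDR of 0.103. With *Otoa* (FDR 0.254) and *Ceacam16* (FDR 0.375), these were the 4 members with an unadjusted p under 0.05. *Otoa*, at 0 in both OHC (P7) libraries, was at least 55.6-fold lower than in cHCs, taking 3 counts per library as the limit. DESeq2 called these 4 members and limma-voom called 3, leaving out *Ceacam16*. *Tecta* gained the call without any 1 of the SC, mature OHC and IHC libraries (FDR 0.0228 to 0.0390), and *Tectb* without any 1 of the SC, cHC and IHC libraries (FDR 0.00105 to 0.0439). Without cHC replicate 13 the difference in *Ceacam16* changed sign, to 0.39.

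Mature OHCs were the cell type with the least of these transcripts. Against SCs, 3 of the 7 members were lower and none was higher, where 8.02% of all genes were called. *Tectb* averaged 0.259 ± 0.00835 CPM against 311 ± 27.5 CPM (log2 fold change -10.21 ± 1.61, FDR 0.00324). *Otog* averaged 6.68 ± 1.53 CPM against 1020 ± 83.6 CPM (-7.26 ± 1.45, FDR 0.0115). *Ceacam16* averaged 1.67 ± 2.11 CPM (-9.93 ± 2.49, FDR 0.0336). *Otoa* was higher in 4 of 4 pairs without passing the threshold (FDR 0.173). The *Tectb* difference kept its call without each of the 10 libraries in turn. That of *Otog* was lost without the mature OHC library at P21 (FDR 0.0570), and that of *Ceacam16* without the same library (FDR 0.138) or SC replicate 11 (FDR 0.0751). With limma-voom both were lost, at FDRs of 0.0956 and 0.319.

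Between the 2 ages of OHCs, the tectorin transcripts fell. *Tecta* went from 713 and 7089 counts at P7 to 0 in both libraries at P22, which is at least 617-fold lower (FDR 0.0440). *Tectb* went from 624 and 1611 CPM to 0.265 and 0.253 CPM (log2 fold change -12.06 ± 1.7, FDR 0.0188). These were 2 of the 7 members, both lower at P22, where 0.551% of all genes were called. *Otog* was lower in 4 of 4 pairs (FDR 0.129), *Otos* at least 122-fold lower (FDR 0.225) and *Otoa* at least 34.5-fold higher (FDR 0.209), none past the threshold. The *Tecta* call was lost without OHC (P7) replicate 14 (FDR 0.135) or the mature OHC library at P21 (FDR 0.137) or P22 (FDR 0.0552), and that of *Tectb* without the P21 library (FDR 0.0999). The *Tecta* call was also lost with only the cell types compared (FDR 0.0574) and that of *Tectb* with limma-voom (FDR 0.0752). *Otog* gained a call without cHC replicate 13 or 16 (FDR 0.0311 and 0.0384) or OHC (P7) replicate 15 (FDR 0.00578). The 2 ages carry library numbers of separate series in the labels, and age and series cannot be told apart. The same split separates all SC, cHC and OHC (P7) libraries from all mature OHC and IHC libraries. In every comparison between these 2 sets, series and cell type cannot be told apart.

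Against cHCs, mature OHCs were lower in *Tectb*, with 0.259 ± 0.00835 CPM against 18.6 ± 24.8 CPM (-6.15 ± 1.39, FDR 0.0378). It was 1 of the 7 members called, where 3.18% of all genes were called. *Otog* was lower in 4 of 4 pairs at an FDR of 0.0567 (-5.34 ± 1.32), and *Otoa* overlapped, with 4.89 ± 2.81 CPM against 7.88 ± 2.16 CPM (-0.69 ± 1.97, FDR 0.889). The *Tectb* call was lost with limma-voom (-4.05, FDR 0.519), with only the cell types compared (FDR 0.183), and without cHC replicate 13 (-2.04, FDR 0.277) or the mature OHC library at P21 (FDR 0.167) or P22 (FDR 0.105). That of *Otog* was gained without SC replicates 12 or 11, cHC replicate 16, either OHC (P7) library or either IHC library (FDR 0.00154 to 0.0291). *Ceacam16* was called lower without cHC replicate 16 (FDR 0.0491) and changed sign without replicate 13, to 1.13.

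IHCs at P74 and P75 had more *Tecta* and less *Tectb* than SCs. These were 2 of the 7 members, where 2.65% of all genes were called. *Tecta* averaged 14.6 ± 4.58 CPM against 0.0531 ± 0.0751 CPM (7.84 ± 1.75, FDR 0.0466), and *Tectb* averaged 3.61 ± 1.61 CPM against 311 ± 27.5 CPM (-6.43 ± 1.33, FDR 0.0279). *Otog* was lower in 4 of 4 pairs (FDR 0.564) and so was *Ceacam16* (FDR 0.268), while *Otoa* was higher in 4 of 4 (FDR 0.208). The *Tecta* call was lost without SC replicates 12 (FDR 0.137) or 11 (FDR 0.0646), OHC (P7) replicate 14 (FDR 0.123) or the IHC library at P75 (FDR 0.0530), and the *Tectb* call without the IHC library at P74 (FDR 0.0548) or P75 (FDR 0.0830). With only the cell types compared the *Tecta* call was lost (FDR 0.122), and with limma-voom the *Tectb* call (FDR 0.0870).

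Against cHCs, IHCs showed no member past the threshold, where 0.924% of all genes were called. Only *Tecta* had an unadjusted p under 0.05, with 14.6 ± 4.58 CPM against 0.199 ± 0.221 CPM (6.11 ± 1.59, FDR 0.145). DESeq2 also called *Tecta* alone and limma-voom called none. Without cHC replicate 16 *Tectb* was called lower in IHCs (-3.33, FDR 0.0428). *Otog*, *Otoa* and *Ceacam16* overlapped between the groups, with log2 fold changes of 0.57 ± 1.10, 0.67 ± 1.97 and 0.48 ± 1.7 (SE; FDRs of 0.893 to 0.952).

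Among mature hair cells, *Tecta* was found in IHCs and not in OHCs. Against mature OHCs *Tecta* was at least 74.5-fold higher in IHCs (FDR 0.0409), the 1 member of 7 called, where 1.46% of all genes were called. *Otog* was at 455 and 350 CPM against 7.76 and 5.6 CPM, just short of the threshold (5.91 ± 1.36, FDR 0.0672). *Tectb* (FDR 0.203) and *Ceacam16* (FDR 0.255) were higher in 4 of 4 pairs. Supporting cell genes moved with these differences, *Gjb2* at 611 and 468 CPM in IHCs against 0.794 and 0.379 CPM in mature OHCs, and *Sox9* at 96.0 and 64.5 CPM against 1.23 and 0.0842 CPM. SCs, at P26 and P27, held 4 and 0 counts of *Tecta*. The part of cells other than IHCs in these differences was not tested. The *Tecta* call was lost without the mature OHC library at P21 (FDR 0.149) or P22 (FDR 0.0873) or OHC (P7) replicate 14 (FDR 0.0754), and with only the cell types compared (FDR 0.172). *Otog* gained its call without either SC, cHC, OHC (P7) or IHC library (FDR 0.00129 to 0.0443), *Tectb* without either cHC library (FDR 0.00794 and 0.00924) and *Ceacam16* without cHC replicate 13 (FDR 0.0495).

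Against OHCs (P7), IHCs were lower in *Tectb*, with 3.61 ± 1.61 CPM against 1117 ± 698 CPM (-8.27 ± 1.45, FDR 0.0412). It was 1 of the 7 members called, where 0.379% of all genes were called. *Tecta* was also lower in 4 of 4 pairs (-3.05 ± 1.36, FDR 0.399), and *Otoa* was at least 88.4-fold higher (FDR 0.210). The *Tectb* call was lost without the IHC library at P74 (FDR 0.0760) or P75 (FDR 0.0996), and with limma-voom (FDR 0.0591).

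**Figure D4:**
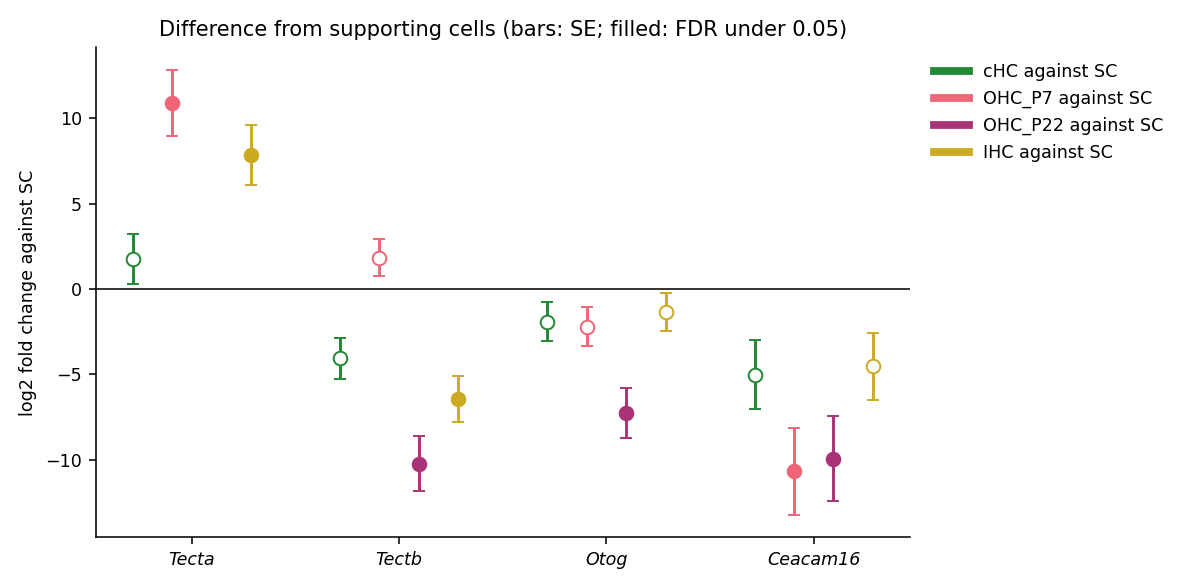
Log2 fold change against SCs of *Tecta*, *Tectb*, *Otog* and *Ceacam16* in the other 4 cell types (points, with SE bars; filled where the FDR is under 0.05). *Tecta* in mature OHCs, at 0 in both libraries, is not drawn; *Tectb*, *Otog* and *Ceacam16* all lay lowest or next to lowest in mature OHCs.

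The median log2 fold change of the 7 was 1.73 in cHCs, 1.84 in OHCs (P7) and -0.69 in IHCs against SCs, where the median of all genes tested was 0.03, 0.00 and 0.00. The value in cHCs is that of *Tecta*, which had 14 counts or fewer in these libraries, while *Tectb*, *Otog* and *Ceacam16* were lower in cHCs. The value in IHCs is that of *Otos*, from 32 and 0 counts against 39 and 1 in SCs. In mature OHCs it was -7.26 against SCs, or -2.17 with the genes at 0 in a whole group set to their bound, where the median of all genes tested was 0.00. From P7 to P22 in OHCs it was -5.05, where the median of all genes tested was -0.04.

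A list of 19 other genes of the tectorial membrane, otoconia and hair bundle links was read for comparison, of which 16 were tested and *Otol1*, *Zpld1* and *Matn4* were too low. *Strc*, which encodes stereocilin, a protein of the links between the tallest stereocilia and the tectorial membrane, was lowest in SCs, where *Otog* and *Ceacam16* were highest, and highest in mature OHCs, where *Otog* and *Tectb* were lowest, at 0.533 and 0.637 CPM in SCs, 119 and 228 CPM in cHCs, 700 and 674 CPM in OHCs (P7), 4185 and 1878 CPM in mature OHCs and 143 and 134 CPM in IHCs. It rose against SCs in cHCs (8.20 ± 0.651, FDR 8.22e-05), in both ages of OHCs and in IHCs. In mature OHCs against SCs, where 8.02% of all genes were called, 1 of the 16 rose and 5 fell. The 5 were *Otogl*, *Epyc*, *Col9a3*, *Col2a1* and *Ctgf* (a secreted growth factor-binding protein), with the collagen genes among them encoding fibril components of the membrane. *Epyc* gave 2661 and 2767 CPM in SCs against 0.264 and 0.168 CPM (-13.64 ± 3.02, FDR 0.0194).

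Beyond those, cHCs and IHCs showed *Strc* as their only call against SCs, and OHCs (P7) showed *Strc* higher and *Ctgf* lower (at least 448-fold, FDR 0.0471). Against cHCs, mature OHCs had more *Strc* and less *Otogl* (FDR 0.0419) and *Pkhd1l1* (a large protein of stereocilia, FDR 0.0430), whereas OHCs (P7) and IHCs gave no call, with 5 and 1 of the 16 at an unadjusted p under 0.05. *Col2a1*, the chief fibrillar collagen of the membrane, was at 516 and 256 CPM in OHCs (P7) and at 0 in both mature OHC libraries (at least 1977-fold lower, FDR 0.0461), the 1 call between the 2 ages. IHCs were lower than mature OHCs in *Strc* (-4.45 ± 0.543, FDR 0.00413) and gave no call against OHCs (P7), with 4 at an unadjusted p under 0.05. Of all genes, 1.84% were called in cHCs, 3.41% in OHCs (P7) and 2.65% in IHCs against SCs. Against cHCs the shares were 3.18% in mature OHCs, 0.343% in OHCs (P7) and 0.924% in IHCs. Between the ages of OHCs 0.551% were called, and in IHCs 1.46% against mature OHCs and 0.379% against OHCs (P7). The median of the 16 was -1.75 in cHCs, 1.16 in OHCs (P7), -4.0 in mature OHCs and -1.98 in IHCs against SCs.

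Among 9243 tested genes with a mean of at least 10 CPM, the gene whose log2 CPM followed *Otog* most closely over the 10 libraries was *Otogl* (Pearson's r = 0.997), its paralogue on the list above. *Otogl* was at 471 and 482 CPM in SCs, 101 and 159 CPM in IHCs, 173 and 9.48 CPM in cHCs, 98.8 and 0.537 CPM in OHCs (P7) and 0.0882 and 0.0421 CPM in mature OHCs. It split between the 2 cHC libraries and between the 2 OHC (P7) libraries on the same side as *Otog*, 18.2-fold and 184-fold. *Ces1d* (r = 0.986) was the next most like *Otog*, and *Cyp2d22* (r = 0.953) and *Glt25d2* (r = 0.951) were the most like *Ceacam16*.

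For the other members the closest genes were *Kcnk3* (0.911) and *Chchd10* (0.899) for *Tecta*, *Cox8a* and *Serpinh1* (both 0.932) for *Tectb*, *Ctnnb1* (0.932) and *Wnk2* (0.896) for *Otoa*, *Pip5k1a* (0.931) and *Eif2c3* (0.899) for *Coch*, and *Vcan* (0.926) and *Kif3a* (0.924) for *Otos*. *Vcan*, a hyaluronan-binding proteoglycan, was at 139 and 181 CPM in OHCs (P7) and at 20.2 CPM or less elsewhere. Among the members, r over the 10 libraries was 0.80 for *Otog* and *Ceacam16*, 0.42 for *Tecta* and *Tectb*, and -0.83 for *Tectb* and *Otoa*. These values describe 10 points that share libraries and depth, and 5 cell types rather than 10 independent states.

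**Figure D5:**
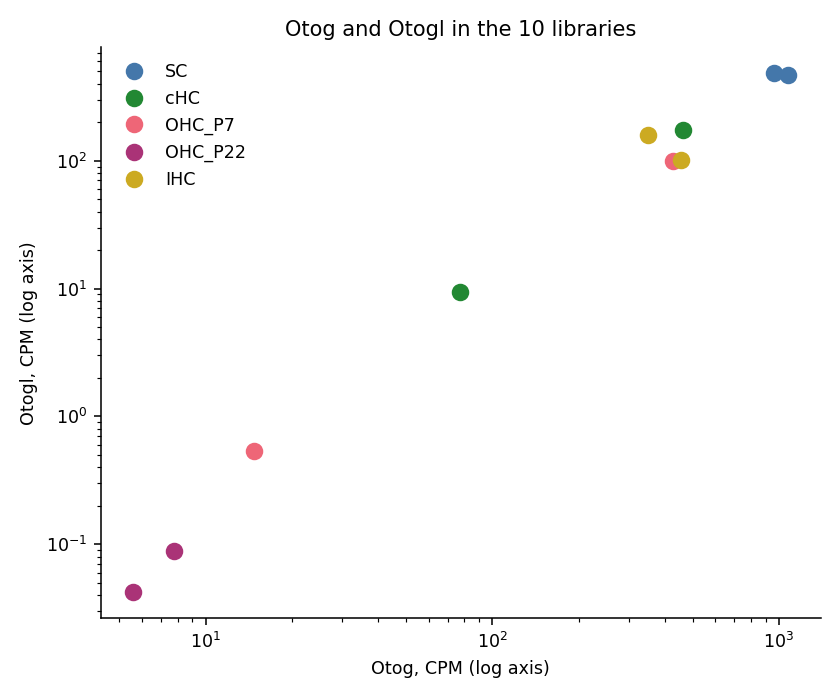
CPM of *Otogl* against *Otog* in the 10 libraries (log axes, 1 point per library, coloured by cell type). The libraries lie along 1 line from mature OHCs, at 5.6 to 7.76 CPM of *Otog*, to SCs, at 961 and 1079 CPM, with 1 library each of cHCs and OHCs (P7) well below its duplicate.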

How the data were processed

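Total RNA of handpicked fluorescent cells was copied and amplified by single primer isothermal amplification, without molecular identifiers, and sequenced in pairs. The authors trimmed the reads with Cutadapt, mapped them to mm9 with STAR and BWA, and deposited the raw counts of reads per gene from HTSeq, not normalized, for 34590 genes; base calling with CASAVA 1.7 is given in the submitters' notes. Between 44.2% and 72.1% of each library's reads were not assigned to a gene, for any reason, and were left out. In 4 of the 10 sample records the attached counts belonged to another sample. Counts were assigned to samples by their constant ratio (coefficient of variation under 1%) to the named CPM columns of the study's own table, an assignment that the file names share.

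All 10 libraries were fitted in 1 model with edgeR 4.0.16 in R 4.3.3 (TMM, filterByExpr, quasi-likelihood F-test, two-sided; common dispersion 1.12), which kept 16891 genes, all 7 members among them. The false discovery rate (FDR, Benjamini-Hochberg) was taken over all genes tested and called under 0.05. The SE of a log2 fold change was obtained as |log2 fold change|/√F. A group with 0 counts in both libraries was set to 3 counts per library for a lower bound, which covers counting error only. Alternatives were limma 3.58.1 with voom (the study's method), DESeq2 1.42.0 without independent filtering, RLE size factors, other filters, fewer libraries, the files as attached, and leaving out each library. The fits were tested on simulated data.

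Named genes were the 7 members, the list of other matrix genes with values for those past the threshold, the 2 genes most correlated with each member (log2 CPM, prior count 2) and cell type marker lists. Genes shown for the split of the cHC and OHC (P7) duplicates were picked from these lists after their values were seen. The members and lists were chosen with earlier results of these data known, and the comparisons of IHCs with OHCs were added after the values were seen. Python 3.11.15, pandas 2.3.3, numpy 2.4.6 and matplotlib 3.10.9 were used. The single-cell experiments were not analysed here.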

Additional observations from a re-analysis of the deposited data

How the results depend on the processing

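No paired analysis was run, because the groups compared share no replicate numbers. The labels of SC replicate 12, cHC replicate 13 and OHC (P7) replicate 15 hold a further sample number. Those of replicates 11, 16 and 14 lack it. Reads on genes were 22597688, 19621193 and 15016129 in the first set and 40518766, 33162033 and 37338042 in the second. The labels do not say what this split stands for, and no fit with it as a block was run. Counts of the 7 members past the threshold depended on the tool and the filter, and the cause was not tested. The comparisons are taken below in the order cHCs, OHCs (P7), mature OHCs and IHCs against SCs; OHCs (P7), mature OHCs and IHCs against cHCs; mature OHCs against OHCs (P7); and IHCs against mature OHCs and against OHCs (P7). The members called were 0, 2, 3, 2, 0, 1, 0, 2, 1 and 1 in this order. They were 2, 2, 1, 2, 3, 0, 0, 1, 1 and 1 with limma-voom, 3, 3, 4, 4, 4, 4, 1, 5, 4 and 3 with DESeq2, and 3, 4, 3, 3, 3, 3, 2, 4, 4 and 2 with no filter on low counts. With at least 10 counts in every library only *Otog* remained to be tested, and 0, 0, 1, 0, 0, 1, 0, 1, 1 and 0 were called. With only the cell types compared they were 0, 2, 3, 1, 0, 0, 0, 1, 1 and 1, with only SC, cHC and OHC (P7) libraries 1 for OHCs (P7) against SCs, and with RLE size factors the counts equalled those above. With the files as attached to the records, 4 of which hold another sample, no member and no gene was called in any comparison. The joint test called 3 members, 4 with limma-voom, 6 with DESeq2, 6 with no filter, 1 under the filter of 10 counts and 0 with the files as attached. Leaving out 1 library at a time, between 0 and 2, 1 and 2, 1 and 3, 0 and 2, 0 and 2, 0 and 3, 0 and 1, 0 and 3, 0 and 4, and 0 and 1 members were called in the same order, and 3 to 4 in the joint test. The lone library left in a group was then assumed to vary like the others.

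Directions were followed only for members with an unadjusted p under 0.05 in the comparison concerned, and among these they turned in 7 cases. With the files as attached, the log2 fold change against SCs in cHCs became 1.54 for *Tectb*, -10.01 for *Otoa* and 3.26 for *Ceacam16*, *Otoa* in OHCs (P7) against cHCs became 9.42, and *Tecta* in IHCs against cHCs became -0.72. Without cHC replicate 13, *Ceacam16* against cHCs became 0.39 in OHCs (P7) and 1.13 in mature OHCs, the highest values over the 10 libraries left out in turn, the lowest being -8.12 and -8.19. Limma-voom did not call *Ceacam16* or *Otog* in any comparison in which edgeR did.

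Over all genes tested the counts called were 311, 576, 1354, 447, 58, 537, 156, 93, 247 and 64 in the same order, and 1320 in the joint test. DESeq2 gave 1771, 2683, 4156, 2305, 1123, 2720, 1378, 1631, 2035, 1327 and 4396, limma-voom 1065, 1172, 1897, 1052, 378, 930, 738, 110, 299, 367 and 2273, and no filter 952, 1503, 2531, 1220, 558, 1591, 671, 844, 1156, 604 and 4067. At least 10 counts in every library moved the count by over 1.5 times in cHCs (132) and OHCs (P7; 337) against SCs, IHCs against cHCs (99) and mature OHCs (145), and the joint test (827). Using only the cell types compared did so for cHCs against SCs (198), mature OHCs against cHCs (310) and OHCs (P7; 23), and IHCs against mature OHCs (117) and OHCs (P7; 124). RLE size factors gave 54 between the ages of OHCs, and only SC, cHC and OHC (P7) libraries gave 23 for OHCs (P7) against cHCs. Without 1 library the counts ranged over 202 to 435, 413 to 814, 750 to 1598, 335 to 631, 26 to 159, 199 to 829, 90 to 271, 22 to 271, 80 to 452, 37 to 169 and 1206 to 1696.

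With 2 libraries per cell type, the SEs of the members' log2 fold changes ran from 1.09 to 3.89. The gene most like *Otog* was *Otogl* with a prior count of 0.5 as well, but by Spearman's rho it was *Pof1b*, and by rho only *Coch* kept its closest gene.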
